A study of Homo sapiens with 38 samples.

Results

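Cell cycle genes were followed through the neural induction of H9 cells, an established line of human embryonic stem cells of wild type genotype. The members are 55 genes named for this description, taken as the rows of the deposited expression table that carry their symbols. All 55 were found, among 58219 genes in the table. They comprise 5 G1 cyclins and kinases, 20 genes of the G1/S transition and S phase, 25 genes of G2 and mitosis, and 5 brakes (2 retinoblastoma family proteins and 3 inhibitors of cyclin-dependent kinases). The study sampled cultures at day 4 (D4) and day 8 (D8) of induction in 9 conditions each, with undifferentiated cells at day 0 (D0 ESC) as the starting point. The conditions were IWP2, an inhibitor of WNT secretion, at 2 µM, then CT, the WNT activator, whose name the labels do not spell out, at 0.0, 0.4, 0.8, 1.0, 2.0, 3.0 and 4.0 µM. The ninth condition, CT4.0RA, added retinoic acid (RA) at 1.0 µM to the highest CT dose. The groups are written as day and condition, such as D8 CT4.0RA, and CT0.0 cells received no WNT drug. The design aims IWP2 at rostral forebrain, rising CT at more caudal brain and CT4.0RA at spinal cord.

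Each of the 19 groups has 2 libraries of poly(A) RNA from the same cell line, described in the labels as biological replicates. The labels do not say whether the 2 libraries come from separate differentiations, so p-values measure the spread between these libraries. Values are TPM, a measure of transcript abundance, and are corrected for transcript length and add up to a fixed total in each library. TPM keeps no read number, so the depth behind a value is unknown. The fixed total also means that RNAs taking up a larger share lower all other values. Ribosomal protein genes took between 17.1% and 39.1% of TPM by library, with the highest share in D8 CT4.0RA, at 38.7% for the group against 29.6% in D8 CT4.0, 19.8% in D8 CT0.0, 30.6% in D4 CT4.0RA and 23.2% in D4 CT4.0. The part of this shift in the results was not tested as such. Counts after median-of-ratios scaling are therefore given beside results that it moved. Of the 38 libraries, 33 were closest to their own partner. The other 5 were the pairs of D4 CT3.0 and D8 CT0.0 and replicate 1 of D8 CT4.0. The 6 pluripotency markers summed to 3940 to 4010 TPM in D0 ESC, 439 to 1100 TPM at day 4 and 353 to 838 TPM at day 8. Most of the later sums was LIN28A, which did not fall in D4 CT0.0. It had 687 and 660 TPM in D0 ESC, 844 and 859 in D4 CT0.0 and 685 and 662 in D8 CT0.0. POU5F1 had 2510 and 2400 TPM in D0 ESC, 20.5 and 32.4 in D4 CT0.0 and 0.895 and 0.508 in D8 CT0.0. NANOG, TDGF1, DPPA4 and ZFP42 were also lower in both groups than in D0 ESC.

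In a dividing cell, D-type cyclins with CDK4 and CDK6 inactivate the retinoblastoma family, which frees E2F factors to switch on the genes of DNA replication. Genes of G2 and mitosis are switched on later, by complexes that contain MYBL2 and FOXM1 and that act through a promoter element called the CHR. In the embryonic nervous system neural progenitors cycle until they become neurons, and CCND1 and CCND2 are the D-type cyclins best known in these progenitors. In bulk samples like these, fewer cycling cells and less RNA per cell cannot be told apart.

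Most members were abundant, and 54 of 55 passed the filter of 1 TPM in at least 2 libraries. The exception was CDKN2A, which encodes the kinase inhibitor p16 and lay between 0 and 1.11 TPM over all libraries. The F test over the 9 conditions, made with limma on log2(TPM + 1) with Benjamini-Hochberg adjustment over 28221 genes, passed for 49 of 54 members at day 4, against 46.4% of all genes. It passed for 53 at day 8, against 57.9% of all genes, and the test of whether the conditions differed from each other in another way at day 8 than at day 4 passed for 53, against 44.1%. CENPE, the kinetochore motor, passed neither the day 8 test (adjusted p = 0.0515) nor that of condition by day (adjusted p = 0.137). The group means of the members spread over a median of 1.49 log2 units, beside 1.47 for all genes tested.

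D8 CT4.0RA was the group with the lowest mean for 35 of the 55 members. This held for 12 of 20 genes of G1/S and S, 20 of 25 genes of G2/M and 2 of 5 G1 cyclins and kinases. D8 IWP2 was the group with the highest mean for 19 members, 13 of them of G2/M. Its ribosomal share, 17.4%, was the lowest of any group. The share of all genes with their lowest mean in D8 CT4.0RA or their highest in D8 IWP2 was not computed. These counts therefore do not show whether the members differ from other genes in this. On the log2(TPM + 1) scale the mean over the G2/M genes was 5.36 ± 0.05 in D8 CT4.0RA, 6.62 ± 0.01 in D8 IWP2 and 6.26 ± 0.01 in D0 ESC (SD, n = 2 libraries each). The mean over the G1/S and S genes was 5.22 ± 0.02 in D8 CT4.0RA, 6.48 ± 0.01 in D8 IWP2 and 6.02 ± 0.09 in D0 ESC. In TPM as deposited, the D8 CT4.0RA libraries were the lowest for both classes, without overlap with any other group. The size factors of median-of-ratios scaling, by which values are divided, were 0.819 and 0.784 in D8 CT4.0RA and 1.2 in both D8 IWP2 libraries. That scaling thus raises the first group and lowers the second, and the ranks of the groups were not computed after it.

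**Figure D1:**
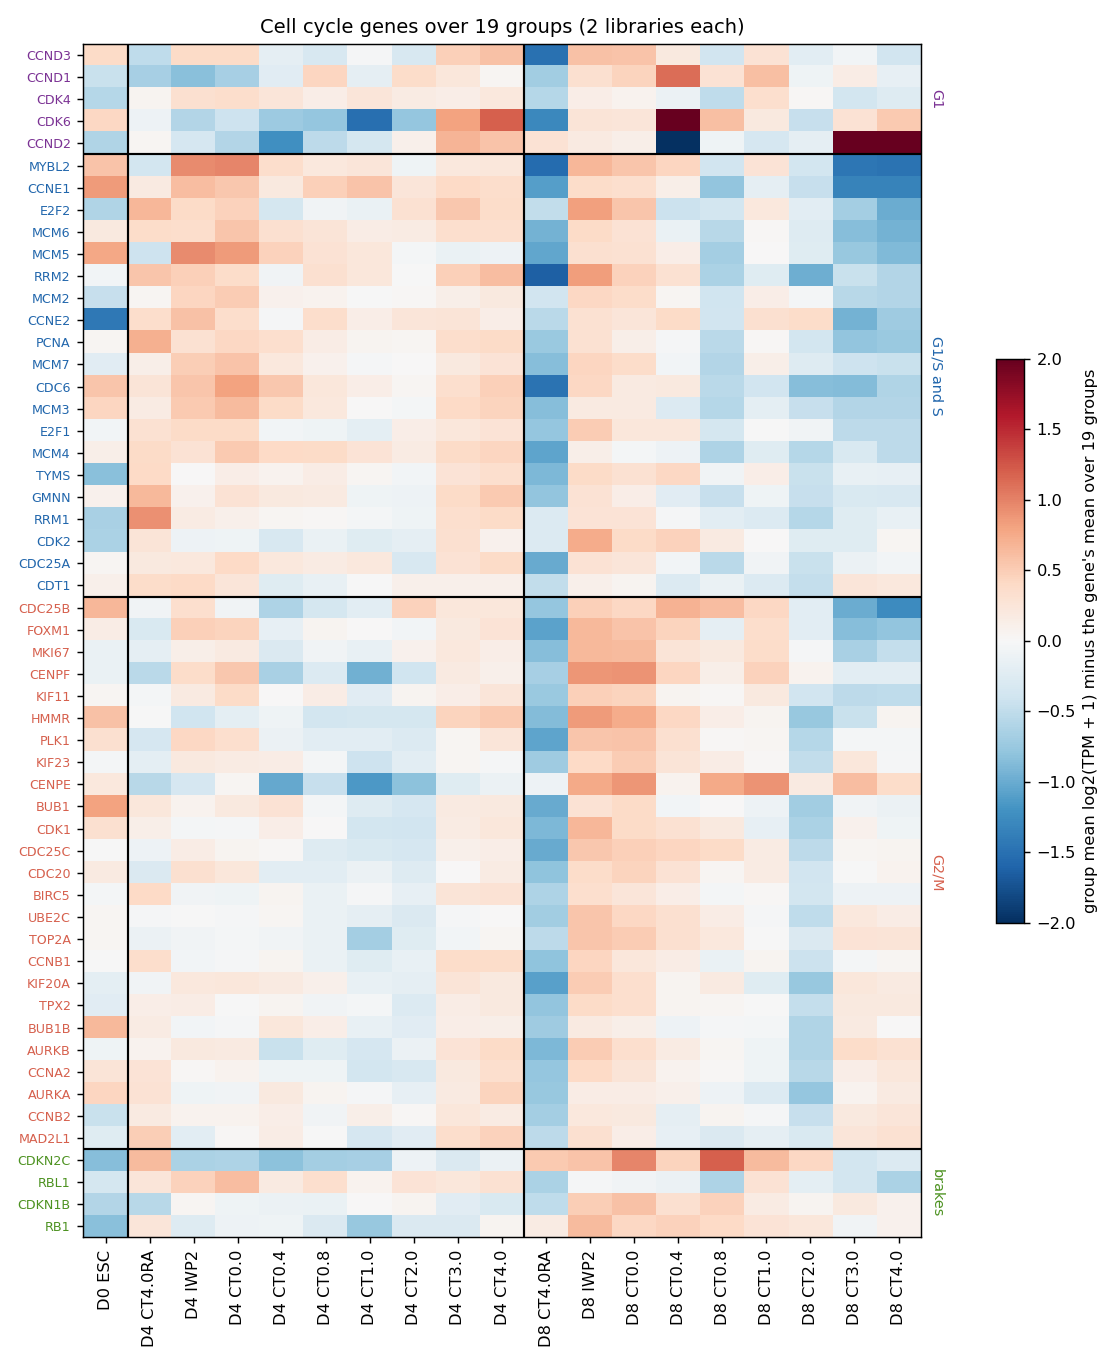
Heat map of the 54 members that passed the filter (rows, by class) in the 19 groups (columns), coloured by the group mean of log2(TPM + 1) less the gene's mean over all groups, with the colour scale ending at 2 in each direction. In TPM as deposited the D8 CT4.0RA column is the lowest for 35 members, and the largest spread of any row, 4.47 log2 units, belongs to CCND2.

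**Figure D2:**
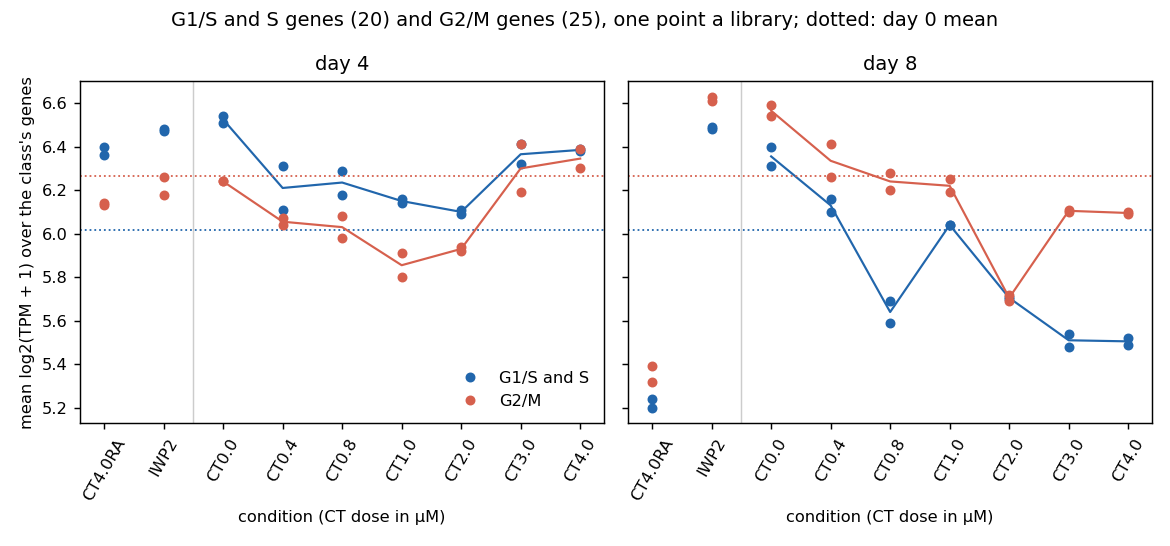
Mean log2(TPM + 1) over the G1/S and S genes and over the G2/M genes, one point for each library, against condition, with lines through the CT dose means and dotted lines at the day 0 means. The classes part at day 8: D8 CT3.0 and D8 CT4.0 average 5.51 for the S-phase class and 6.10 for the G2/M class.

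The promoters of the classes differ in the words they carry, which is why 6 of them are shown. RefSeq promoters (GRCh38.p14, 250 bases before to 50 after the start of the first promoter listed for a gene) were matched for 44 of the 55 members. That promoter start can lie inside the annotated gene: for RB1 the window begins at chr13:48476200 and the gene at chr13:48303726. Any of the E2F words TTTCCCGC, TTTGGCGC, TTTCGCGC or TTTGCCGC on either strand occurred in 11 of 16 promoters of G1/S and S genes (68.8%), in 1 of 20 of G2/M genes (5%) and in 3.31% of all 35116 promoters in the table. The CHR words TTTGAA or TTCGAA occurred in 13 of 20 G2/M promoters (65%), in 2 of 16 of G1/S and S genes (12.5%) and in 16.4% of all promoters. The word CCAAT, which can lie beside the CHR, was in 16 of 20 G2/M promoters (80%), 9 of 16 of G1/S and S genes (56.2%) and 34.6% of all. A match is a word in the sequence and not a measured site, and words of the same kind can overlap. In the sequences below, written from 5′ to 3′, capitals mark every match of these words on either strand, so that a CCAAT word on the other strand reads ATTGG. The first set holds, among matched promoters, the 3 genes of G1/S and S with an E2F word that fell most in D8 CT4.0 relative to D8 CT0.0.
E2F2, chr1:23531184-23531483, minus strand: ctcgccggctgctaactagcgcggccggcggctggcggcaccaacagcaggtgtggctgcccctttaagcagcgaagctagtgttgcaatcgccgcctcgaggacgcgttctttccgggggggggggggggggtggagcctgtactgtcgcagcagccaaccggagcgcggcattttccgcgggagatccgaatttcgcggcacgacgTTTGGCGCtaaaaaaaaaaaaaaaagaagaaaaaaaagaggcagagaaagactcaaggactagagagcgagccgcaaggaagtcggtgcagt
MCM6, chr2:135876394-135876693, minus strand: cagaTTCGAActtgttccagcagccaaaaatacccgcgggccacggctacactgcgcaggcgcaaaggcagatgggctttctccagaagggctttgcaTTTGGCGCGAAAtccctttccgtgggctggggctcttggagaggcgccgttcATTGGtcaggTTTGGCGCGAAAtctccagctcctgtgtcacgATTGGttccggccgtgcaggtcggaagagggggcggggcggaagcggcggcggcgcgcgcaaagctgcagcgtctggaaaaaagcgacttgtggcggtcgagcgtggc
MCM2, chr3:127598161-127598460, plus strand: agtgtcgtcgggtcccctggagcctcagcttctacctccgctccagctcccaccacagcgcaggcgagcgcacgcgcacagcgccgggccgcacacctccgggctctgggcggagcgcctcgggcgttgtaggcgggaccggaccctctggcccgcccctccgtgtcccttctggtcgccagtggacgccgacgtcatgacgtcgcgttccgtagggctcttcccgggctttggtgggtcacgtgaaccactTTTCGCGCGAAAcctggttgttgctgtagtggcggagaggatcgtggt

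The second set holds, also among matched promoters, the 3 G2/M genes with a CHR word that fell most in D8 CT4.0RA relative to D8 CT4.0. In PLK1 and CCNB2 the CHR word starts 29 bases before the promoter start, and in HMMR 28 and 22 bases before it. In E2F2 the E2F word starts 42 bases before the promoter start, and in MCM2 the 2 words start 2 and 6 bases after it.
PLK1, chr16:23678639-23678938, plus strand: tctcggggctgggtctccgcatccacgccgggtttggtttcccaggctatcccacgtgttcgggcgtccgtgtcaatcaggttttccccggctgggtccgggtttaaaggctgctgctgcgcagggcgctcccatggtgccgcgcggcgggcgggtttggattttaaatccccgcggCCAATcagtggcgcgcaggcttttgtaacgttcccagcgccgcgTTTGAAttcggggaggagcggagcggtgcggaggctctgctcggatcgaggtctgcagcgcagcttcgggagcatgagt
CCNB2, chr15:59104896-59105195, plus strand: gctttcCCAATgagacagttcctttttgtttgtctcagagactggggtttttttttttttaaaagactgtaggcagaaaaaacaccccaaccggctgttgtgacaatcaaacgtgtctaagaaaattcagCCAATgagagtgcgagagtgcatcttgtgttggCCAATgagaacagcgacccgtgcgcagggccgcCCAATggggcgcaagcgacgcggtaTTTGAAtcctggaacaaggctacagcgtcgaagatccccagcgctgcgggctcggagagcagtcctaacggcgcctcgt
HMMR, chr5:163460382-163460681, plus strand: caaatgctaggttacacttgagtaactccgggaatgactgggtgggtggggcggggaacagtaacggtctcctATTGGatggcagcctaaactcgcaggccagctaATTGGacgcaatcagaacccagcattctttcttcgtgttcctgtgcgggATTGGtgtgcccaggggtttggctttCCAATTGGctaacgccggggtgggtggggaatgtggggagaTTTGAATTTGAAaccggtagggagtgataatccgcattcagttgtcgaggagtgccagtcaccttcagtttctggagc

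Induction without WNT drugs was first compared with the stem cells. Most genes of G1/S and S were higher in D4 CT0.0 than in D0 ESC, while the G2/M genes went both ways. Of 54 members, 27 rose and 8 fell, against 36.8% of all genes called, 20.6% higher and 16.3% lower. Within G1/S and S, 15 of 20 rose and none fell. CCNE2, a cyclin that activates CDK2 at the start of S phase, had 13.8 and 12.2 TPM in D4 CT0.0, against 3.34 and 2.83 TPM in D0 ESC (log2 fold change 1.77 ± 0.17 SE, adjusted p = 2.26e-08). Both D4 libraries lay above both stem cell libraries. MCM2, a subunit of the replicative helicase, had 157 and 164 TPM in D4 CT0.0, against 75.9 and 87.1 TPM in D0 ESC (0.97 ± 0.07, adjusted p = 2.28e-10). TYMS, which makes thymidylate, had 182 and 185 TPM in D4 CT0.0, against 88.6 and 98.4 TPM in D0 ESC (0.97 ± 0.06, adjusted p = 3.95e-12). For both genes the groups were well apart.

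Of the 25 G2/M genes 8 rose and 7 fell in D4 CT0.0 relative to D0 ESC. BUB1, a kinase of the spindle checkpoint, had 71.6 and 70.9 TPM in D4 CT0.0, against 108 and 110 TPM in D0 ESC (−0.60 ± 0.1, adjusted p = 3.19e-05). Its partner BUB1B had 112 and 104 TPM in D4 CT0.0, against 184 and 161 TPM in D0 ESC (−0.67 ± 0.13, adjusted p = 0.000159). Neither gene's groups overlapped. MAD2L1, another gene of that checkpoint, did not pass (0.27 ± 0.12, adjusted p = 0.0862). Long transcripts read lower against short ones in D0 ESC (log2 difference −0.23 and −0.19) than in D4 CT0.0 (0.14 and 0.20). The part of this in the results was not tested. Median-of-ratios scaling left 12 members higher and 14 lower in place of 27 and 8, with 8 higher and 1 lower in G1/S and S and 1 higher and 11 lower in G2/M. Of the other pathway genes, 26 of 32 for G1/S and S rose and none fell, led by UHRF1, a factor that keeps DNA methylated through replication (1.76), and E2F7, a repressor of E2F targets (1.48). Averaged over the 9 conditions, day 4 gave 21 members higher and 15 lower than D0 ESC, against 39.8% of all genes called, 17.5% higher and 22.2% lower.

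From day 4 to day 8 the S-phase genes fell as a class when averaged over the conditions, though not in every one. The class mean of log2(TPM + 1) was 6.48 on both days in IWP2 and went from 6.52 to 6.35 in CT0.0. It went from 6.39 to 5.51 in CT4.0 and from 6.38 to 5.22 in CT4.0RA. In the mean of the 9 conditions, 19 of 20 genes of G1/S and S were lower at day 8 than at day 4 and 1 was higher. Over all members 12 rose and 31 fell, against 43.5% of all genes called, 25.9% higher and 17.6% lower. The median log2 change of the S class was −0.45, beside 0.05 for all genes. CCNE1, the other cyclin of the G1/S transition, fell by 0.88 ± 0.05 (adjusted p = 1.11e-12), and CDC6, which loads the helicase at origins, fell by 0.81 ± 0.05 (adjusted p = 1.72e-11). MCM4, a helicase subunit, fell by 0.73 ± 0.03 (adjusted p = 4.97e-14). CDK2, the kinase partner of cyclin E, was the exception and rose by 0.16 ± 0.05 (adjusted p = 0.00525). Of the other 32 genes of G1/S and S, 29 fell and none rose.

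The G2/M genes split, with 5 higher and 10 lower at day 8 than at day 4 in the mean of the conditions, and a median of −0.04. CENPE rose by 1.01 ± 0.11 (adjusted p = 4.73e-08). It is a long transcript, at 8612 nucleotides, and the log2 difference between long and short transcripts lay between −0.02 and 0.18 in the day 8 libraries, against −0.43 to 0.20 in the day 4 libraries. That difference was 0.14 and 0.18 in D8 CT0.0, against 0.14 and 0.20 in D4 CT0.0. CENPE did not pass between these groups (0.83 ± 0.32, adjusted p = 0.0744). The part of transcript length in the change of CENPE was not tested. In cells without WNT drugs the split followed class. D8 CT0.0 had 10 of 25 G2/M genes higher than D4 CT0.0 and none lower, while in G1/S and S 2 were higher and 8 lower (17 and 9 over all members, against 18.7% of all genes called, 11% higher and 7.73% lower). TOP2A, the topoisomerase that untangles chromosomes, had 251 and 224 TPM in D8 CT0.0, against 167 and 158 TPM in D4 CT0.0 (0.54 ± 0.11, adjusted p = 0.0012). UBE2C, which serves the anaphase-promoting complex, had 421 and 375 TPM in D8 CT0.0, against 288 and 296 TPM in D4 CT0.0 (0.44 ± 0.06, adjusted p = 9.22e-06). MCM3, a helicase subunit, had 178 and 186 TPM in D8 CT0.0, against 251 and 247 TPM in D4 CT0.0 (−0.45 ± 0.05, adjusted p = 2.36e-06). The libraries of the days did not overlap for these 3 genes. Without replicate 2 of D4 CT0.0 the number of members called was 14 in place of 26, and without replicate 1 of D8 CT0.0 it was 16.

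Among the G1 genes, CCND2 had the widest range of all members. CCND2 (ENSG00000118971.7, chr12:4273772-4305350, plus strand, GRCh38) encodes cyclin D2. In its 2 libraries each, D8 CT0.0 had 54.8 and 52.2 TPM, D8 CT0.4 had 8.58 and 11.5, D8 CT0.8 had 42.7 and 49.7, D8 CT1.0 had 39.5 and 38, D8 CT2.0 had 42.1 and 44.5, D8 CT3.0 had 215 and 239, and D8 CT4.0 had 233 and 250 TPM. The level was thus low at 0.4 µM, intermediate from 0.8 to 2.0 µM and high at 3.0 and 4.0 µM, with no overlap between these steps. D8 CT4.0RA had 60.9 and 59.3 TPM, a little above the libraries without CT. Set against D8 CT0.0, the change was 2.15 ± 0.14 in D8 CT4.0 (adjusted p = 2.99e-11) and −2.31 ± 0.14 in D8 CT0.4 (adjusted p = 2.41e-11). D8 CT3.0 exceeded D8 CT2.0 by 2.36 ± 0.14 (adjusted p = 1.17e-11), a comparison that was chosen after the levels were seen. CCND2-AS1, which lies on the opposite strand, stayed between 0 and 3.12 TPM, and whether counting used the strand is not given in the sources used here.

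At day 4 CCND2 followed dose more evenly. It had 30.2 and 35.2 TPM at 0.0 µM, 17.8 and 23.5 at 0.4, 29.4 and 38.8 at 0.8, 34.4 and 42.8 at 1.0, 50.7 and 55.7 at 2.0, 84 and 75.7 at 3.0, and 72.7 and 75.2 TPM at 4.0 µM CT. D0 ESC had 32.2 TPM in both libraries. D4 CT4.0 was above D4 CT0.0 by 1.16 ± 0.14 (adjusted p = 9.6e-07). The libraries at 0.4 µM were thus the lowest of the dose range on both days.

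CDK6 (ENSG00000105810.9, chr7:92604921-92836594, minus strand) encodes a kinase partner of the D-type cyclins. D8 CT0.4 had 27.3 and 28.1 TPM, against 6.86 and 7.09 TPM in D8 CT0.0 (1.85 ± 0.26, adjusted p = 1.51e-05). These were the highest values of the gene in any library, in the group where CCND2 was lowest. CCND1 (ENSG00000110092.3, chr11:69641087-69654474, plus strand) encodes cyclin D1 and was also highest in D8 CT0.4, with 131 and 143 TPM, against 87.9 and 82.9 TPM in D8 CT0.0 (0.68 ± 0.15, adjusted p = 0.00238). At day 4 CDK6 had 13.7 and 15.4 TPM in D4 CT4.0, against 3.19 and 5.18 TPM in D4 CT0.0 (1.61 ± 0.26, adjusted p = 5.04e-05). CCND1 was likewise higher there, with 56.5 and 73.2 TPM in D4 CT4.0, against 36.1 and 43 TPM in D4 CT0.0 (0.69 ± 0.15, adjusted p = 0.00121). Across time without WNT drugs CCND1 rose by 1.10 ± 0.15 in D8 CT0.0 relative to D4 CT0.0 (adjusted p = 1.41e-05). CDK4, the other kinase, had 324 and 327 TPM in D4 CT0.0, against 158 and 184 TPM in D0 ESC (0.93 ± 0.11, adjusted p = 2.33e-07), with no overlap.

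**Figure D3:**
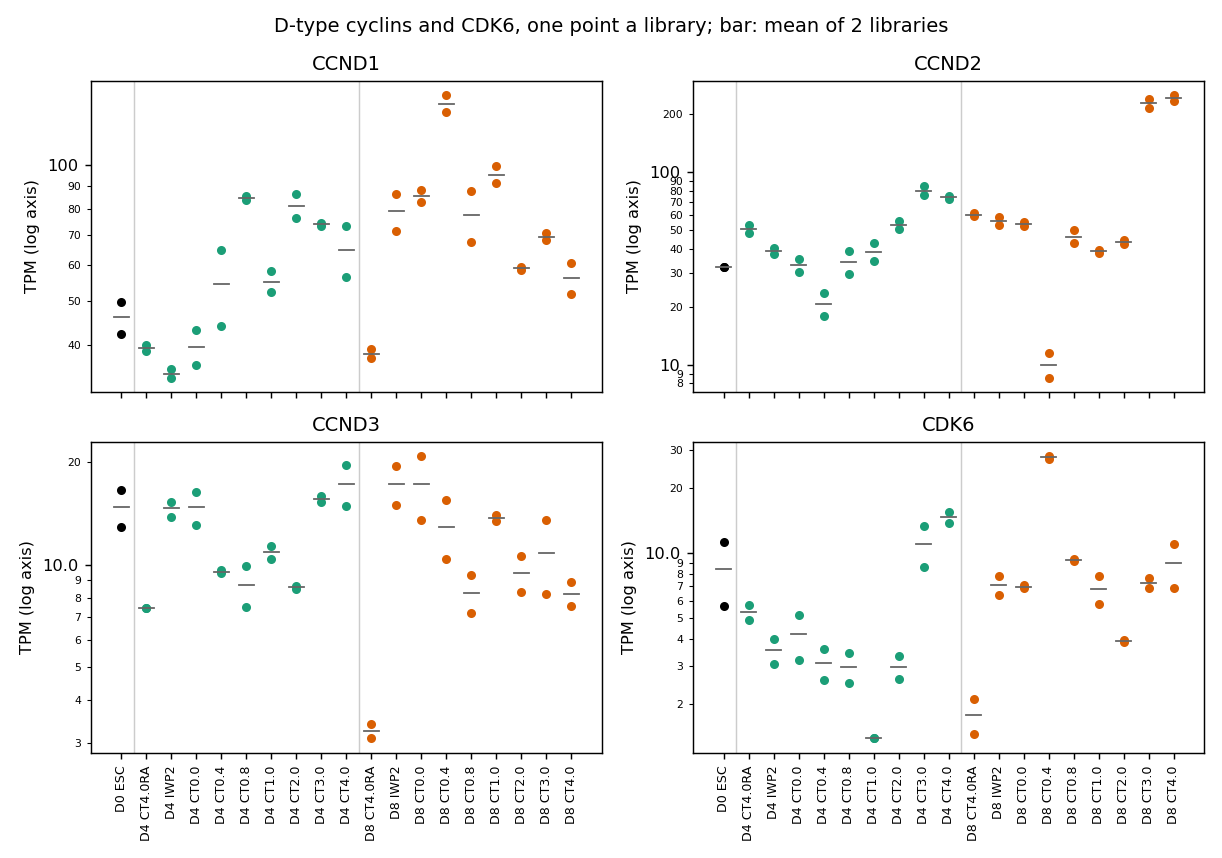
TPM (log axes) of CCND1, CCND2, CCND3 and CDK6 in each library, with a bar at the mean of the 2 libraries of a group. CCND2 reaches 215 to 250 TPM in D8 CT3.0 and D8 CT4.0 and falls to 8.58 and 11.5 TPM in D8 CT0.4, where CDK6 has its highest values of 27.3 and 28.1 TPM.

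The WNT drugs were compared with CT0.0 on each day, so these comparisons share their CT0.0 libraries. IWP2 gave no called member at day 4 (0.695% of all genes, 0.301% higher and 0.393% lower) or at day 8 (0.78% of all genes, 0.446% higher and 0.333% lower) by limma. At an unadjusted p under 0.05 there were 7 members on each day, beside 11.7% of all genes at day 4 and 11% at day 8. CCNB1, the main mitotic cyclin, had the estimate 0.21 ± 0.06 at day 8 (adjusted p = 0.12). Among the other pathway genes FEN1, a nuclease of lagging strand synthesis, rose by 0.34 ± 0.08 (adjusted p = 0.0437) and WEE1, the kinase that holds back CDK1, rose by 0.35 ± 0.08 (adjusted p = 0.031) in D8 IWP2.

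At the lowest CT dose some of the S-phase genes were lower on both days. At day 4, 8 of 20 genes of G1/S and S, 9 of 25 of G2/M and 1 of 5 G1 genes fell in CT0.4 relative to CT0.0, and none rose (18 in all, against 11.8% of all genes called, 2.2% higher and 9.57% lower). After median-of-ratios scaling 7 were higher and 8 lower, with 3 lower and none higher in G1/S and S and 4 lower and 6 higher in G2/M. The median over all genes was −0.10 as deposited and 0 after that scaling. Long transcripts also read lower against short ones in D4 CT0.4 (log2 difference −0.17 and −0.10) than in D4 CT0.0 (0.14 and 0.20). CENPF and CENPE, long transcripts at 10307 and 8612 nucleotides, were among the 4 largest called changes of G2/M here. The part of this in the results was not tested. The number called was 8 without replicate 1 of D4 CT0.4 and 9 without replicate 2 of D4 CT0.0. MCM2 had 112 and 126 TPM in D4 CT0.4, against 157 and 164 TPM in D4 CT0.0 (−0.43 ± 0.07, adjusted p = 0.000324). At day 8, 7 genes of G1/S and S and 6 of G2/M fell and none of these classes rose (16 members called in all, against 15.2% of all genes, 8.95% higher and 6.21% lower, and 10 without replicate 1 of D8 CT0.4). MCM3 had 130 and 135 TPM in D8 CT0.4, against 178 and 186 TPM in D8 CT0.0 (−0.45 ± 0.05, adjusted p = 1.28e-06).

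At the highest CT dose the days differed. D4 CT4.0 had 12 members higher and 6 lower than D4 CT0.0, against 23.7% of all genes called, 8.69% higher and 15% lower. After median-of-ratios scaling 15 were higher and 4 lower. The 12 comprised 3 G1 genes, 2 genes of G1/S and S and 7 of G2/M, and the 6 were all of G1/S and S. MCM5, a helicase subunit, had 73.7 and 75.2 TPM in D4 CT4.0, against 138 and 153 TPM in D4 CT0.0 (−0.96 ± 0.13, adjusted p = 6.05e-06). AURKA, the kinase of spindle poles, had 63.3 and 62.4 TPM in D4 CT4.0, against 42.6 and 45.4 TPM in D4 CT0.0 (0.51 ± 0.1, adjusted p = 0.000604). Neither overlapped. Marker genes of other cell types moved in this comparison too. The 6 mesoderm markers summed to 33 to 44.5 TPM in D4 CT4.0 (2 at 1 TPM or more, none at 0), against 1.14 to 1.6 TPM in D4 CT0.0 (none at 1 TPM, HAND1 and MEOX1 at 0). The 6 neural progenitor markers summed to 1060 to 1220 TPM in D4 CT4.0 (4 at 1 TPM or more), against 1190 to 1250 TPM in D4 CT0.0 (5). Within that list PAX6 had 1.78 and 1.2 TPM in D4 CT4.0, against 99.7 and 107 TPM in D4 CT0.0. VIM went the other way, with 920 and 780 TPM in D4 CT4.0, against 333 and 360 TPM in D4 CT0.0. The other markers of the list, SOX1, SOX2, NES and HES5, were lower in D4 CT4.0. Long transcripts also read lower against short ones in D4 CT4.0 (log2 difference −0.18 in both libraries) than in D4 CT0.0 (0.14 and 0.20). The part of these markers and of this difference in the results was not tested. Of the other pathway genes 12 of 32 for G1/S and S fell and 2 rose, with POLE, the leading strand polymerase, at −1.15 ± 0.22.

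In D8 CT4.0, 40 members were lower and 1 higher than in D8 CT0.0, against 36.9% of all genes called, 7.57% higher and 29.3% lower. In G1/S and S 19 of 20 fell, with a median of −0.80, beside −0.27 for all genes. CDT1, which licenses origins, was the S gene that did not pass (0.15 ± 0.14, adjusted p = 0.452), and it stood at 0.53 after median-of-ratios scaling. MYBL2, the MYB protein that helps switch on mitotic genes, had 23 and 22 TPM in D8 CT4.0, against 93.3 and 96.4 TPM in D8 CT0.0 (−2.03 ± 0.1, adjusted p = 1.96e-13). CCNE1 had 6.26 and 6.25 TPM in D8 CT4.0, against 23.5 and 20.8 TPM in D8 CT0.0 (−1.67 ± 0.14, adjusted p = 3.68e-09). MCM6, a helicase subunit with 4 E2F word matches in overlapping pairs in its promoter, had 33.3 and 35.8 TPM in D8 CT4.0, against 79 and 86.7 TPM in D8 CT0.0 (−1.24 ± 0.07, adjusted p = 5.49e-12). In each of these the CT4.0 libraries lay below both D8 CT0.0 libraries. E2F2, a factor of the E2F family, had 2.11 and 2.19 TPM in D8 CT4.0, against 6.8 and 9.87 TPM in D8 CT0.0 (−1.55 ± 0.18, adjusted p = 4.65e-07). PCNA, the sliding clamp of the replication fork, had 164 and 163 TPM in D8 CT4.0, against 282 and 312 TPM in D8 CT0.0 (−0.86 ± 0.07, adjusted p = 6.6e-10). Both were again free of overlap. MCM5 had 48.9 and 37.5 TPM in D8 CT4.0, against 89.9 and 109 TPM in D8 CT0.0 (−1.19 ± 0.13, adjusted p = 1.49e-07). MCM7, a helicase subunit, had 168 TPM in both D8 CT4.0 libraries, against 286 and 311 TPM in D8 CT0.0 (−0.82 ± 0.06, adjusted p = 4.06e-10). E2F1, an activator of S-phase genes, had 20.8 and 19.2 TPM in D8 CT4.0, against 34.2 and 34.8 TPM in D8 CT0.0 (−0.76 ± 0.1, adjusted p = 1.88e-06). The CT4.0 libraries were the lower ones in all 3. Of the other pathway genes for G1/S and S, 24 of 32 fell and 1 rose, and TK1, thymidine kinase, showed the largest fall (−2.14 ± 0.11, adjusted p = 6.78e-13).

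Of the G2/M genes 15 of 25 fell in D8 CT4.0 and none rose, with a median of −0.37. CDC25B, the phosphatase that starts CDK1 activation, had 4.26 and 4.96 TPM in D8 CT4.0, against 17.5 and 16.1 TPM in D8 CT0.0 (−1.67 ± 0.17, adjusted p = 5.34e-08). FOXM1, the forkhead factor of mitotic genes, had 26.1 and 25.8 TPM in D8 CT4.0, against 68.2 and 66.8 TPM in D8 CT0.0 (−1.35 ± 0.11, adjusted p = 7.82e-10). MKI67, the gene of the Ki-67 proliferation antigen, had 27.4 and 33.1 TPM in D8 CT4.0, against 67.8 and 65.7 TPM in D8 CT0.0 (−1.12 ± 0.11, adjusted p = 3.91e-08). The groups did not overlap for any of the 3. TOP2A did not pass, with 198 and 201 TPM in D8 CT4.0, against 251 and 224 TPM in D8 CT0.0 (−0.25 ± 0.11, adjusted p = 0.0917). In D8 CT4.0 long transcripts read lower against short ones (log2 difference −0.02 and 0.01) than in D8 CT0.0 (0.18 and 0.14). MKI67 is the longest of the members, at 12678 nucleotides. The part of this difference in the results was not tested.

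The scaling bore on how many members fell at the highest dose. With median-of-ratios scaling the median over all genes moved to 0, and 21 members were lower and 9 higher in D8 CT4.0. G1/S and S then had 13 lower and 1 higher, with a median of −0.43, while G2/M had 6 lower and 7 higher, with a median of 0.01. CCNB1 fell by 0.19 ± 0.06 as deposited (adjusted p = 0.0189) and stood at 0.20 after median-of-ratios scaling, and its call was lost without any of the 4 libraries compared (−0.20 to −0.17). After rescaling without ribosomal and mitochondrial genes, G1/S and S had 16 lower and none higher, with a median of −0.63, beside −0.14 for all genes. G2/M then had 9 lower and 2 higher, with a median of −0.19. The fall of the S class thus held in each case, and that of the G2/M class depended on the scaling.

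CDKN1A, the p21 inhibitor that p53 induces, is not a member and moved most among the other pathway genes. It had 9.82 and 10.1 TPM in D8 CT0.0, 8.07 and 8.61 TPM in D8 CT2.0, 133 and 118 TPM in D8 CT3.0, and 141 and 138 TPM in D8 CT4.0, and D8 CT4.0RA had 17.7 and 21.6 TPM. The change in D8 CT4.0 relative to D8 CT0.0 was 3.68 ± 0.23 (adjusted p = 2.17e-11). CDKN1A and CCND2 were thus high in the same groups, D8 CT3.0 and D8 CT4.0. Markers of cell types moved with the highest dose at day 8. The 6 neural progenitor markers summed to 1030 to 1160 TPM in D8 CT4.0 (4 at 1 TPM or more), against 1750 to 1880 TPM in D8 CT0.0 (all 6). PAX6 had 1.29 and 1.78 TPM in D8 CT4.0, against 126 and 95.1 TPM in D8 CT0.0. HES5 had 0.276 and 0.404 TPM in D8 CT4.0, against 156 and 157 TPM in D8 CT0.0, so that both lay far below the cells without CT. SOX1, SOX2 and NES were lower too. VIM went the other way, with 936 and 802 TPM in D8 CT4.0, against 702 and 661 TPM in D8 CT0.0. The 6 neural crest markers summed to 19.4 to 19.7 TPM in D8 CT4.0 (2 at 1 TPM or more, TFAP2A and TFAP2B at 0), against 189 to 198 TPM in D8 CT0.0 (2, with FOXD3 and TFAP2B at 0). Mesoderm markers, of which 1 of 6 was at 1 TPM or more in D8 CT4.0 and none in D8 CT0.0, summed to 23.6 to 24 TPM in D8 CT4.0, against 0.884 to 1.69 TPM in D8 CT0.0. Nearly all of it was TBXT, with 21.3 and 23.2 TPM in D8 CT4.0. MIXL1 was at 0 in D8 CT4.0, and TBXT and HAND1 were at 0 in D8 CT0.0. Their part in the results was not tested.

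**Figure D4:**
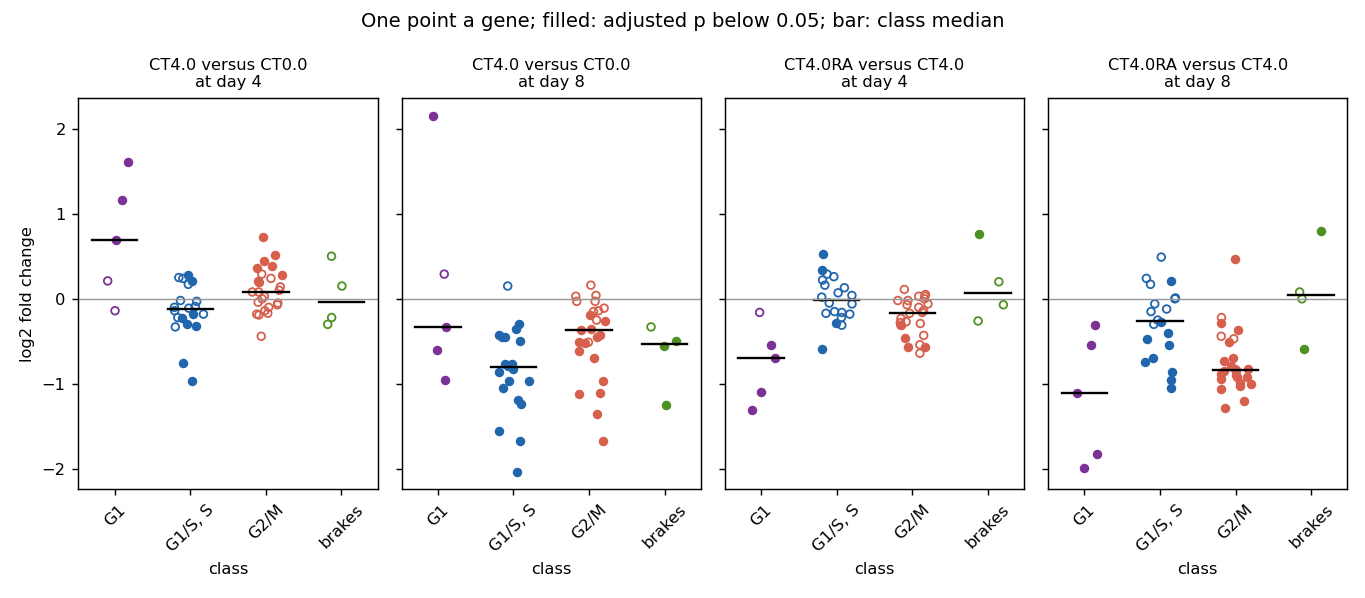
Log2 fold change of the members by class in CT4.0 against CT0.0 and CT4.0RA against CT4.0, each at day 4 and day 8, one point for each gene, with called genes filled and a bar at the class median. In D8 CT4.0 against D8 CT0.0 the S-phase class has a median of −0.80 and the G2/M class of −0.37, and in D8 CT4.0RA against D8 CT4.0 the order is the other way, with −0.26 and −0.84.

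The intermediate doses at day 8 showed dips that the end points do not show. From 0.0 to 4.0 µM CT the mean over the G2/M genes, on the log2(TPM + 1) scale, was 6.56, 6.33, 6.24, 6.22, 5.71, 6.10 and 6.10. The SD over the 2 libraries was at most 0.1. The mean over the G1/S and S genes was 6.35, 6.13, 5.64, 6.04, 5.70, 5.51 and 5.51, so that it had a second low at 0.8 µM. MYBL2 had 90.1 and 83.1 TPM in D8 CT0.4, 48.1 and 49.7 TPM in D8 CT0.8 and 77.7 and 77.9 TPM in D8 CT1.0, with no overlap. The following pair of comparisons was chosen after the levels were seen. D8 CT2.0 had 32 members lower than D8 CT1.0 and none higher, against 6.5% of all genes called, 1.62% higher and 4.88% lower. The 32 comprised 21 of 25 G2/M genes, 10 of 20 of G1/S and S and 1 G1 gene. D8 CT3.0 then had 18 of 25 G2/M genes higher than D8 CT2.0 and 3 lower, while in G1/S and S 6 were higher and 8 lower (26 and 13 over all members, against 31.9% of all genes called, 10.4% higher and 21.6% lower). After median-of-ratios scaling 19 G2/M genes were higher and 3 lower, and G1/S and S had 7 in each direction, with a median of 0.06 in place of −0.13. KIF20A, a kinesin of cytokinesis, had 87 and 75.6 TPM at 0.0 µM, 62.1 and 70.7 at 0.4, 78.2 and 67.8 at 0.8, 52.5 and 55.3 at 1.0, 36.4 and 38.7 at 2.0, 75.6 and 74.2 at 3.0, and 72.1 and 73.5 TPM at 4.0 µM. The libraries at 2.0 µM were below all the others on this dose range. The difference was −0.51 ± 0.1 between D8 CT2.0 and D8 CT1.0 (adjusted p = 0.00251) and 0.98 ± 0.1 between D8 CT3.0 and D8 CT2.0 (adjusted p = 9.09e-08).

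CCNB1 had the same shape, with 219 and 228 TPM in D8 CT1.0, 159 and 159 TPM in D8 CT2.0, 207 and 211 TPM in D8 CT3.0, and 220 and 220 TPM in D8 CT4.0. Its difference was −0.49 ± 0.06 between D8 CT2.0 and D8 CT1.0 (adjusted p = 1.49e-05) and 0.39 ± 0.06 between D8 CT3.0 and D8 CT2.0 (adjusted p = 2.46e-05). AURKB, the kinase of the chromosomal passenger complex, had 111 and 118 TPM in D8 CT1.0, 83.1 and 75.8 TPM in D8 CT2.0, 144 and 169 TPM in D8 CT3.0, and 145 and 154 TPM in D8 CT4.0. Both genes were thus lowest at 2.0 µM among these doses, without overlap. The 3 G2/M genes that fell again at 3.0 µM were MKI67, FOXM1 and CDC25B. FOXM1 had 38.7 and 39 TPM in D8 CT2.0 and 22.7 and 27 TPM in D8 CT3.0, and CT3.0 fell by 0.63 ± 0.11 relative to CT2.0 (adjusted p = 5.86e-05). MYBL2 fell by 1.09 ± 0.1 over the same step (adjusted p = 7.05e-09) and CCNE2 by 1.32 ± 0.17 (adjusted p = 2.6e-06).

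The 10 neuron markers moved over the same doses. Their sum was 388 to 392 TPM in D8 CT0.0, 552 to 652 TPM in D8 CT0.4 and 393 TPM in both D8 CT0.8 libraries. It was 762 to 947 TPM in D8 CT1.0, 633 to 690 in D8 CT2.0, 173 to 181 in D8 CT3.0 and 209 to 213 in D8 CT4.0. Most of the sum in D8 CT1.0 and D8 CT2.0 was TUBB3, with 606 and 514 TPM in the first and 385 and 408 in the second. The mean log2(TPM + 1) over the list was 4.35 in D8 CT1.0 and 4.49 in D8 CT2.0, so that it did not fall with the sum. Markers at 1 TPM or more in both libraries numbered 6 of 10 in D8 CT0.0 and 8 each in D8 CT0.4, D8 CT0.8 and D8 CT1.0. They numbered 9 in D8 CT2.0 and 6 each in D8 CT3.0 and D8 CT4.0. ISL1 was at 0 in D8 CT0.0, D8 CT0.8, D8 CT2.0, D8 CT3.0 and D8 CT4.0. The ribosomal share was 23.4% in D8 CT1.0, 29.2% in D8 CT2.0 and 30.8% in D8 CT3.0. With median-of-ratios scaling 20 members were lower in D8 CT2.0 than in D8 CT1.0, 14 of them of G2/M, and none was higher. The count was 21 without replicate 2 of D8 CT1.0. The part of the neuron markers in these results was not tested.

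**Figure D5:**
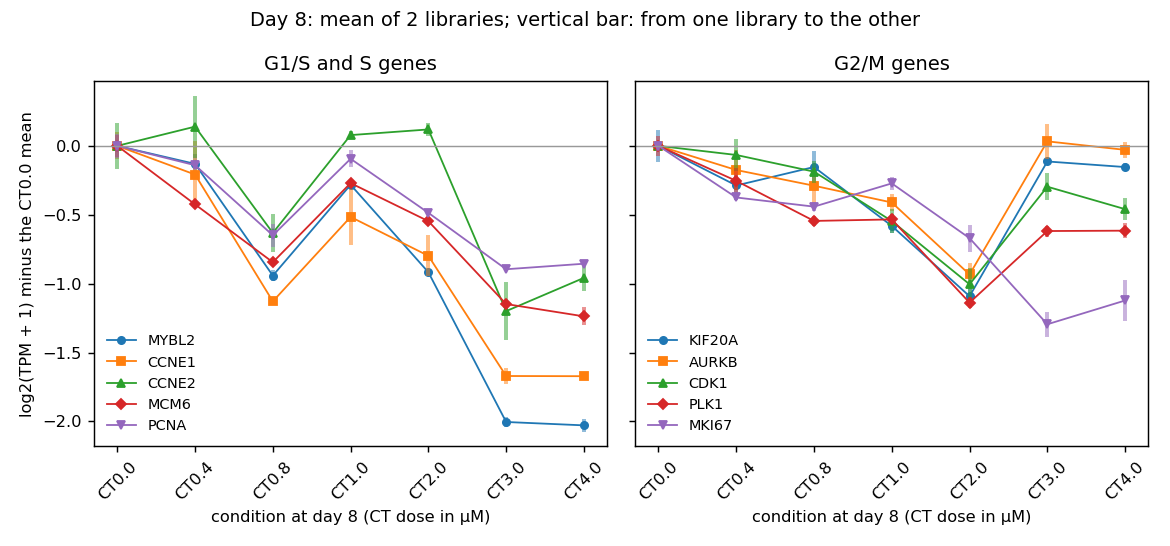
Day 8 log2(TPM + 1) of 5 genes of G1/S and S and 5 of G2/M across CT dose in µM, less the mean of D8 CT0.0; points are means of 2 libraries and bars run between the libraries. KIF20A and AURKB are lowest at 2.0 µM and higher at 3.0 and 4.0 µM, where MYBL2 is lowest, at −2.03 for 4.0 µM.

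A straight line over the 7 CT doses summarised these courses, with slopes in log2 units per µM. At day 8, 41 members had a falling slope and 4 a rising one, against 48.3% of all genes called, 10% higher and 38.3% lower. After median-of-ratios scaling 20 fell and 14 rose. At day 4, 21 had a rising slope and 2 a falling one, against 26.9% of all genes called, 12.4% higher and 14.5% lower. The courses were not straight, however: over CT0.0 to CT2.0 at day 4, 27 members had a falling slope and 4 a rising one, against 21.8% of all genes called, 6.04% higher and 15.8% lower. MYBL2 fell on both days, by 0.54 ± 0.02 per µM at day 8 (adjusted p = 3.33e-16) and by 0.12 ± 0.02 per µM at day 4 (adjusted p = 3.77e-05), though the day 4 call was lost without the 0 dose (−0.03). The slope differed between the days for 41 members, being lower at day 8 for 40 of them (against 32.3% of all genes called, 4.89% higher and 27.4% lower), and for 29 after median-of-ratios scaling, with 24 lower and 5 higher.

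The same dose at the 2 days was set side by side in comparisons that were chosen after the levels were seen. D8 CT4.0 had 29 members lower and 2 higher than D4 CT4.0, against 22.6% of all genes called, 5.67% higher and 16.9% lower. After median-of-ratios scaling 22 were lower and 6 higher. In G1/S and S 18 of 20 fell and none rose, with a median of −0.84, while in G2/M 8 of 25 fell and none rose, with a median of −0.16. After that scaling 16 of G1/S and S fell and none rose, and G2/M had 4 in each direction. MYBL2 had 23 and 22 TPM in D8 CT4.0, against 69.7 and 81 TPM in D4 CT4.0 (−1.70 ± 0.1, adjusted p = 4.34e-11). The days did not overlap.

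With retinoic acid on top of CT4.0, genes of G1 and of mitosis were lower at day 8. D8 CT4.0RA had 36 members lower and 3 higher than D8 CT4.0, against 25.4% of all genes called, 10.1% higher and 15.3% lower. Of G2/M genes 21 of 25 fell and 1 rose, with a median of −0.84, beside 0.00 for all genes. KIF20A had 31.5 and 27.5 TPM in D8 CT4.0RA, against 72.1 and 73.5 TPM in D8 CT4.0 (−1.28 ± 0.1, adjusted p = 1.91e-09). AURKB had 61.3 and 67.2 TPM in D8 CT4.0RA, against 145 and 154 TPM in D8 CT4.0 (−1.20 ± 0.09, adjusted p = 6.17e-10). PLK1, the polo kinase of mitotic entry whose promoter is shown above, had 34.8 and 36.4 TPM in D8 CT4.0RA, against 71.1 and 75 TPM in D8 CT4.0 (−1.02 ± 0.08, adjusted p = 1.48e-09). The RA libraries were the lower ones in each case, with no overlap. The cyclins of late S phase and mitosis fell with their kinase. CCNA2, cyclin A2, had 51.1 and 45.9 TPM in D8 CT4.0RA, against 99.2 and 97 TPM in D8 CT4.0 (−1.0 ± 0.07, adjusted p = 3.86e-10). CCNB2, cyclin B2, had 84.3 and 86.7 TPM in D8 CT4.0RA, against 161 and 165 TPM in D8 CT4.0 (−0.92 ± 0.07, adjusted p = 9.31e-10). TPX2, which activates AURKA on the spindle, had 52.2 and 51.5 TPM in D8 CT4.0RA, against 105 and 103 TPM in D8 CT4.0 (−0.99 ± 0.06, adjusted p = 1.08e-11). All 3 were free of overlap. CDK1, the mitotic kinase itself, had 70.6 and 64.1 TPM in D8 CT4.0RA, against 125 and 114 TPM in D8 CT4.0 (−0.82 ± 0.12, adjusted p = 9.83e-06). TOP2A had 115 TPM in both D8 CT4.0RA libraries, against 198 and 201 TPM in D8 CT4.0 (−0.79 ± 0.11, adjusted p = 8.12e-06). CDC25B was the G2/M gene that rose, with 7.3 and 6.28 TPM in D8 CT4.0RA, against 4.26 and 4.96 TPM in D8 CT4.0 (0.47 ± 0.17, adjusted p = 0.0459). That call was lost without any of the 4 libraries compared (0.38 to 0.57) and without several other libraries of the fit (0.47).

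The S-phase class split under RA at day 8, with 9 of 20 lower and 1 higher, and a median of −0.26. After median-of-ratios scaling 8 were lower and 2 higher, with a median of −0.13, and after rescaling without ribosomal and mitochondrial genes 8 were lower and 4 higher, with a median of −0.08. RRM2, the regulated subunit of ribonucleotide reductase, had 30.9 and 32.4 TPM in D8 CT4.0RA, against 64.4 and 68.8 TPM in D8 CT4.0 (−1.05 ± 0.16, adjusted p = 2.37e-05). TYMS had 90.5 and 89 TPM in D8 CT4.0RA, against 157 and 144 TPM in D8 CT4.0 (−0.74 ± 0.06, adjusted p = 7.83e-10). Both were lower in the RA libraries without overlap, while RRM1, the other subunit of ribonucleotide reductase, did not pass (−0.12 ± 0.1, adjusted p = 0.464). PCNA and MYBL2, both already low in D8 CT4.0 relative to D8 CT0.0, did not pass. PCNA had 170 and 158 TPM in D8 CT4.0RA, against 164 and 163 TPM in D8 CT4.0. MYBL2 had 21.5 TPM in both D8 CT4.0RA libraries, against 23 and 22 TPM in D8 CT4.0 (−0.06 ± 0.1, adjusted p = 0.74). MCM6 did not pass either (0.01 ± 0.07). Of the other pathway genes 29 of 35 for G2/M fell and none rose, and 14 of 32 for G1/S and S fell and 1 rose. NUF2, a kinetochore protein, fell by 1.57 ± 0.17.

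All 5 G1 genes fell in D8 CT4.0RA relative to D8 CT4.0. CCND2 had 60.9 and 59.3 TPM in D8 CT4.0RA, against 233 and 250 TPM in D8 CT4.0 (−1.99 ± 0.14, adjusted p = 2.06e-10). CDK6 had 2.11 and 1.44 TPM in D8 CT4.0RA, against 6.9 and 11 TPM in D8 CT4.0 (−1.82 ± 0.26, adjusted p = 9.2e-06). CCND3, cyclin D3, had 3.09 and 3.41 TPM in D8 CT4.0RA, against 7.54 and 8.88 TPM in D8 CT4.0 (−1.11 ± 0.22, adjusted p = 0.000485). None of the 3 overlapped. CCND1 fell by 0.54 ± 0.15 and lost its call without replicate 1 of D8 CT4.0 (−0.43) or replicate 1 of D8 CT4.0RA (−0.51). CDK4 stood at −0.31 and lost its call without any of the 4 libraries (−0.36 to −0.25) and after median-of-ratios scaling (−0.17), where the other 4 stayed called. Beside these changes the ribosomal share was 38.7% in D8 CT4.0RA and 29.6% in D8 CT4.0. The neuron markers summed to 397 to 446 TPM in D8 CT4.0RA (9 of 10 at 1 TPM or more), against 209 to 213 TPM in D8 CT4.0 (6 of 10). The neural progenitor markers summed to 1480 to 1490 TPM in D8 CT4.0RA (all 6 at 1 TPM or more), against 1030 to 1160 TPM in D8 CT4.0 (4). Within that list PAX6 had 326 and 327 TPM in D8 CT4.0RA, against 1.29 and 1.78 TPM in D8 CT4.0, and SOX1, NES and HES5 were higher too. SOX2 was lower, with 108 and 106 TPM in D8 CT4.0RA, against 147 and 141 TPM in D8 CT4.0. VIM was lower as well, with 718 and 710 TPM in D8 CT4.0RA, against 936 and 802 TPM in D8 CT4.0. The mesoderm markers summed to 9.35 to 15.5 TPM in D8 CT4.0RA (1 at 1 TPM or more, TBXT and HAND1 at 0), against 23.6 to 24 TPM in D8 CT4.0. The sums of both neural lists were thus higher with RA and that of the mesoderm list lower. Nearly all of the mesoderm sum in D8 CT4.0 was TBXT, and the sum of the other mesoderm markers was higher with RA. CDKN1A fell by 2.77 ± 0.23 (adjusted p = 3.96e-09). Their part in the results was not tested.

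At day 4, D4 CT4.0RA had 10 members lower and 3 higher than D4 CT4.0, against 21% of all genes called, 3.54% higher and 17.4% lower. The 13 are 24.1% of the 54 members tested, a share near that of all genes. Median-of-ratios scaling turned this balance, with 4 lower and 19 higher, while the median over all genes moved to 0 from −0.18. The G1 genes were lower under both scalings, 4 of 5 as deposited and 2 of 5 after scaling. CDK6 had 5.74 and 4.86 TPM in D4 CT4.0RA, against 13.7 and 15.4 TPM in D4 CT4.0 (−1.31 ± 0.26, adjusted p = 0.000624). CCND3 had 7.46 TPM in both D4 CT4.0RA libraries, against 14.8 and 19.6 TPM in D4 CT4.0 (−1.09 ± 0.22, adjusted p = 0.000788). PCNA had 441 and 461 TPM in D4 CT4.0RA, its highest values in any library, against 355 and 358 TPM in D4 CT4.0 (0.34 ± 0.07, adjusted p = 0.000627). Long transcripts also read lower against short ones in D4 CT4.0RA than in D4 CT4.0 (log2 difference −0.43 and −0.31 in D4 CT4.0RA, against −0.18 in both libraries of D4 CT4.0), and CDK6, at 11612 nucleotides, is among the longest of the members. The part of this in the results was not tested.

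The RA effect differed between the days for 29 members, with 26 lower and 3 higher at day 8 (against 15.2% of all genes, 10.6% higher and 4.58% lower), and for 31 after median-of-ratios scaling, all lower. Of the 26, 17 were of G2/M. From D4 CT4.0RA to D8 CT4.0RA, in a comparison chosen after the levels were seen, 47 of 54 members fell and none rose, against 20.8% of all genes called, 9.84% higher and 11% lower. This took in all 20 genes of G1/S and S (median −1.17) and 23 of 25 of G2/M (median −0.86), beside 0.00 for all genes, and the same class counts held after median-of-ratios scaling. PCNA fell by 1.45 ± 0.07, to 170 and 158 TPM in D8 CT4.0RA, against 441 and 461 TPM in D4 CT4.0RA (adjusted p = 9.25e-13). RRM2 fell by 2.2 ± 0.16 (adjusted p = 1.12e-09) and CCNB1 by 1.15 ± 0.06 (adjusted p = 7.74e-12). CCND2 did not pass (0.25 ± 0.14, adjusted p = 0.248). The neuron markers summed to 397 to 446 TPM in D8 CT4.0RA (9 of 10 at 1 TPM or more), against 129 to 138 TPM in D4 CT4.0RA (7), with none at 0 on either day. The neural progenitor markers summed to 1480 to 1490 TPM in D8 CT4.0RA (6 of 6 at 1 TPM or more), against 906 to 970 TPM in D4 CT4.0RA (5). The sums of both lists were thus higher at day 8. Within the progenitor list SOX2 went the other way, with 108 and 106 TPM in D8 CT4.0RA, against 190 and 176 TPM in D4 CT4.0RA. The part of these markers in the fall of the members was not tested.

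Among the brakes tested, 3 of 4 rose and 1 fell in D8 CT0.0 relative to D4 CT0.0, against 18.7% of all genes called, 11% higher and 7.73% lower. Those that rose were CDKN2C, CDKN1B and RB1 (0.51 ± 0.16, adjusted p = 0.0252), and RBL1 fell by 0.68 ± 0.19 (adjusted p = 0.0113). RB1 lost its call without any of the 4 libraries compared (0.47 to 0.56), and RBL1 without replicate 1 of D8 CT0.0 (−0.61) or replicate 2 of D4 CT0.0 (−0.57). CDKN2C, which encodes p18 and binds CDK4 and CDK6, had 3.16 and 2.31 TPM in D8 CT0.0, against 0.217 and 0.248 TPM in D4 CT0.0 (1.59 ± 0.19, adjusted p = 2.81e-06). It had 0 and 0.101 TPM in D0 ESC. CDKN1B, which encodes p27, had 49.6 and 49.3 TPM in D8 CT0.0, against 31.8 and 29.7 TPM in D4 CT0.0 (0.67 ± 0.1, adjusted p = 6.87e-05). Both genes were above their day 4 levels in both libraries. At the highest dose CDKN2C had 0.711 and 0.425 TPM in D8 CT4.0, against 3.16 and 2.31 TPM in D8 CT0.0 (−1.25 ± 0.19, adjusted p = 1.38e-05). CDKN1B had 22.3 and 23.3 TPM in D8 CT4.0RA, against 35.3 and 34.2 TPM in D8 CT4.0 (−0.59 ± 0.1, adjusted p = 0.000129), and the groups did not overlap. RB1, the retinoblastoma gene, had 16.1 and 16.5 TPM in D4 CT0.0, against 7.86 and 11.1 TPM in D0 ESC (0.74 ± 0.16, adjusted p = 0.000597). RBL1, which encodes its relative p107, had 10.9 and 12.9 TPM in D4 CT0.0, against 5.13 and 6.02 TPM in D0 ESC (0.97 ± 0.19, adjusted p = 0.000197). Both lay above the stem cells in both libraries.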

How the data were processed

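Poly(A) RNA was sequenced in paired ends from 38 libraries in 19 groups of 2, on 1 of 2 Illumina instrument models that the labels do not tie to a library. The authors deposited TPM values per gene. CASAVA 1.7, Salmon 0.8.2 and hg38 are named, per the submitters' processing notes, without their settings. TPM keeps no read number, so no counting interval is given. Of 58219 genes, 28221 were kept for having 1 TPM or more in 2 or more libraries. On log2(TPM + 1), which understates changes of low genes, limma 3.58.1 in R 4.3.3 fitted the 19 group means from all 38 libraries (19 residual degrees of freedom). Calls are at a Benjamini-Hochberg adjusted p under 0.05 over all genes kept. Errors are standard errors. Slopes run over the 7 CT doses.

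The members, the 81 other genes of the pathway and the markers were chosen with earlier results of these data known. Named in full were the G1 genes, brakes, MKI67, TOP2A, CDK1, CCNB1, PCNA, MCM2 and the 4 largest called changes per class. Other members named, CCND2-AS1 and the 4 comparisons of adjacent doses or of days under CT4.0 and CT4.0RA were chosen after the values were seen. The fit was tested on simulated data. Alternatives were a pseudocount of 0.1, no filter, median-of-ratios scaling, rescaling without 79 ribosomal protein and 37 mitochondrial genes, a log2 fold minimum of 1 (0.25 per µM for slopes), other dose ranges, a replicate block and leaving out each library. Promoters are from RefSeq.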

Additional observations from a re-analysis of the deposited data

Results flagged for a closer look

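The response to CT differed between the days, by the test of the difference between the day 8 and the day 4 slope, for 41 members. Differences are in log2 units per µM, ± SE, with the adjusted p from limma. Among G2/M genes the difference was −0.70 ± 0.05 for CDC25B (adjusted p = 3.81e-10), −0.41 ± 0.05 for HMMR (adjusted p = 2.66e-06), −0.39 ± 0.03 for FOXM1 (adjusted p = 1.59e-09) and −0.36 ± 0.03 for MKI67 (adjusted p = 1.2e-08). Among G1 genes it was 0.44 ± 0.04 for CCND2 (adjusted p = 1.05e-08), the member with a steeper rise at day 8, though over CT0.0 to CT2.0 alone its difference was −0.23. CDK6 had −0.68 ± 0.07 (adjusted p = 1.65e-07), CCND1 −0.35 ± 0.04 (adjusted p = 8.11e-07) and CCND3 −0.30 ± 0.06 (adjusted p = 0.00048). Of the brakes, CDKN2C had −0.52 ± 0.05 (adjusted p = 1.1e-07) and RB1 −0.16 ± 0.04 (adjusted p = 0.00722), which became 0.04 over CT0.0 to CT2.0. Of the S-phase genes, MYBL2 had −0.42 ± 0.03 (adjusted p = 1.37e-10, and 0.01 over CT0.0 to CT2.0), E2F2 −0.41 ± 0.05 (adjusted p = 1.9e-06), CCNE1 −0.38 ± 0.04 (adjusted p = 1.66e-07) and RRM2 −0.32 ± 0.04 (adjusted p = 5.99e-06).

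The effect of RA differed between the days, by the test of the day 8 less the day 4 effect, for 29 members. CCND2 had −1.44 ± 0.2 (adjusted p = 2.01e-05). Of the G2/M genes, KIF20A had −1.01 ± 0.14 (adjusted p = 3.85e-05), TPX2 −0.93 ± 0.08 (adjusted p = 7.35e-08), CCNA2 −0.93 ± 0.1 (adjusted p = 1.63e-06) and CCNB2 −0.92 ± 0.1 (adjusted p = 1.25e-06). Of the S-phase genes, RRM2 had −0.99 ± 0.23 (adjusted p = 0.00394), CDT1 −0.97 ± 0.2 (adjusted p = 0.00177), TYMS −0.80 ± 0.08 (adjusted p = 3.71e-07) and CDC25A −0.77 ± 0.13 (adjusted p = 0.00021). For every gene of this paragraph the effect of RA was lower at day 8 than at day 4.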

How the results depend on the processing

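Most calls were of changes under 2-fold. With a log2 fold minimum of 1 (0.25 per µM for slopes), members called are given here with the share of all genes in brackets. They numbered 1 (13.9%) for day 4 against day 0 and 1 (1.88%) for day 8 against day 4 in the means. They numbered 2 each for D4 CT0.0 against D0 ESC (16.8%), D8 CT0.0 against D4 CT0.0 (5.78%), CT0.4 against CT0.0 at day 4 (2.23%) and day 8 (6.03%), CT4.0 against CT0.0 at day 4 (8.3%), RA at day 4 (5.84%), the day 4 slope (7.65%) and the RA difference between days (7.13%). They numbered 12 (15.8%) for CT4.0 against CT0.0 at day 8, 9 (8.87%) for RA at day 8, 11 (20.2%) for the day 8 slope and 17 (13.9%) for the slope difference. For the comparisons chosen later they numbered 0 (1.76%) for D8 CT2.0 against D8 CT1.0, 3 (12.9%) for D8 CT3.0 against D8 CT2.0, 11 (5.76%) for D8 CT4.0 against D4 CT4.0 and 23 (5.22%) for D8 CT4.0RA against D4 CT4.0RA.

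Median-of-ratios scaling moved 2 counts by over 1.5 times, to 23 for RA at day 4 and 20 for D8 CT2.0 against D8 CT1.0. It reversed CDK4 (0.05) and CCNB1 (0.20) in D8 CT4.0, CCNB1 (0.28) and MCM3 (0.02) for RA at day 4, the day 8 slopes of CDK4 (0.04), CDKN1B (0.01), TOP2A (0.08), CDK1 (0.01) and CCNB1 (0.07) and the slope difference of TOP2A (0.02). Rescaling without ribosomal and mitochondrial genes reversed the day 8 slope of CCNB1 (0.01). Over CT0.0 to CT2.0 the day 4 slopes of CCND3 (−0.27), CDK6 (−0.20), CDK1 (−0.24), CCNB1 (−0.10), PCNA (−0.19), CDK2 (−0.01), HMMR (−0.11) and AURKB (−0.07) reversed, as did the day 8 slopes of CDK4 (0.04) and CCNE2 (0.05) and the slope differences of CCND2 (−0.23), RB1 (0.04), MCM2 (0.05) and MYBL2 (0.01). The courses bend with dose, and the cause of the scaling reversals was not tested. Of 447 values for named members, 446 kept direction and call with a pseudocount of 0.1, 442 without the filter, 393 with median-of-ratios scaling and 410 with the rescaling.

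Leaving out each library in turn gave these ranges of members called: 27 to 38 (day 4 mean against day 0), 42 to 44 (day 8 against day 4 means), 26 to 35 (D4 CT0.0 against D0 ESC), 14 to 27 (D8 CT0.0 against D4 CT0.0), 0 to 0 (IWP2, both days), 8 to 19 and 10 to 17 (CT0.4 at day 4 and day 8), 12 to 19 and 36 to 42 (CT4.0 at day 4 and day 8), 10 to 17 and 33 to 40 (RA at day 4 and day 8), 20 to 27 and 41 to 45 (slopes at day 4 and day 8), 39 to 42 (slope difference), 25 to 30 (RA difference), 21 to 33 (D8 CT2.0 against D8 CT1.0), 32 to 40 (D8 CT3.0 against D8 CT2.0), 27 to 32 (D8 CT4.0 against D4 CT4.0), 44 to 47 (D8 CT4.0RA against D4 CT4.0RA), and 46 to 50, 52 to 54 and 52 to 54 (F tests at day 4, at day 8 and of condition by day). A group left with 1 library takes its spread from the other groups.

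The replicate numbers are those of CTRL1 and CTRL2 in the sample titles, and the labels do not say whether they mark parallel series. Deviations of same-numbered libraries correlated between −0.0427 and 0.0372 over 171 pairs of groups, so no strong shift shared by number was seen. With the number as a replicate block, 37 members were called for day 4 against day 0, 17 for RA at day 4, 40 for CT4.0 and 40 for RA at day 8, and no count moved by over 1.5 times. Depth is unknown, 2 libraries per group limit every estimate, and the instrument could not be examined.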
